A study of Astyanax mexicanus with 12 samples.

Results

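The catalogued microRNA (miRNA) counts of *Astyanax mexicanus* embryos were dominated by a small set of miRNAs without a large step in level between the morphs. The set was chosen by a rule on the deposited counts that requires both properties. A miRNA belonged to it when its mean count over all 12 libraries was at least 10000 and when its 4 morph levels showed no step. The level of a morph was log2 of the mean CPM (counts scaled to the same library total) of its 3 libraries plus 0.5, and a step was a gap of 0.7 or more between neighbouring values of the 4 sorted levels. Of the 683 miRNAs in the catalogue, 43 met the rule. Because the rule used the morph means, levels and differences between morphs are given below as a description, and counts of edgeR calls among the 43 support nothing about them. The spread between libraries, the rank order, and the ratios within a library were not used directly. The count limit still favors high ranks and low counting error. The gap limit bounds how far ranks and ratios can shift between morphs, so these too are a description.

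*A. mexicanus* is a fish with a river-dwelling morph, called surface fish, and cave morphs named after the caves they come from. The libraries came from wild type (WT) embryos of 3 cave morphs (Pachón, Tinaja, and Molino) and of surface fish at 24 h postfertilization (hpf), with no treatment named in the labels. Each morph had 3 libraries of size-selected small RNA, and 50 embryos were collected per morph. How these embryos were divided among the libraries is not given in the sources used here, so the spread between libraries may be technical.

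A miRNA is a short RNA that is cut from a hairpin precursor and loaded into an Argonaute protein, where its seed pairs with target mRNAs and lowers their translation or stability. In animal embryos a few miRNAs usually make up most of the miRNA reads, because broadly expressed and tissue-specific miRNAs can accumulate to very high copy numbers. The name of a miRNA in this catalogue (astmex-miR- and a number) is that of the deposited table. Whether a number stands for the same-numbered miRNA of other species was not checked, so no function is given for any of them. Sequences of the miRNAs were not analysed here.

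Total counts per library are sums over the 683 miRNAs of the catalogue and lay between 5539157 and 15279059. Reads of other small RNAs are not in them, so a share of a library below is a share of its catalogued miRNA counts. The lowest count of any of the 43 miRNAs in any library was 5903. The Pachón libraries (10035615 to 15279059) were all deeper than those of surface fish (5539157 to 8537696). The 95% Wilson interval of a share in a single library reached at most 2.58% of the share to either side, for astmex-miR-39 in Molino replicate 3, and as little as 0.0687%. These intervals cover counting error only. Factors that scale the libraries to each other (TMM, trimmed mean of M values) lay between 0.937 and 1.14, with both extremes in Tinaja, in replicates 2 and 3. A ratio of counts of different miRNAs is a ratio of reads and not of molecules.

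The 43 miRNAs held nearly all catalogued miRNA counts of every library. Their summed share was 94.5% ± 0.159 in Pachón, 94.7% ± 0.348 in Tinaja, 95.7% ± 0.178 in Molino, and 94.7% ± 0.168 in surface fish (mean ± SD, n = 3 each, as for all shares and ratios below). The 3 Molino libraries, at 95.48% to 95.83%, lay above the other 9, which ranged from 94.32% to 95.02%. With astmex-miR-13 included, the miRNA above the count limit that the rule left out and that was lowest in Molino, Molino overlapped with Pachón (96.21% to 96.43% against 96.11% to 96.31%), an alternative chosen after seeing the data. The remaining 640 miRNAs shared 4.17% to 5.68% of a library. The most abundant miRNA was also taken out of both the set and the total. The share was then 91.7% in Pachón, 91.9% in Tinaja, 92.4% in Molino, and 91.5% in surface fish. The Molino libraries (91.72% to 92.83%) overlapped with those of Pachón (91.36% to 91.98%) and Tinaja (90.81% to 92.75%). They lay above those of surface fish (91.38% to 91.68%).

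**Figure D1:**
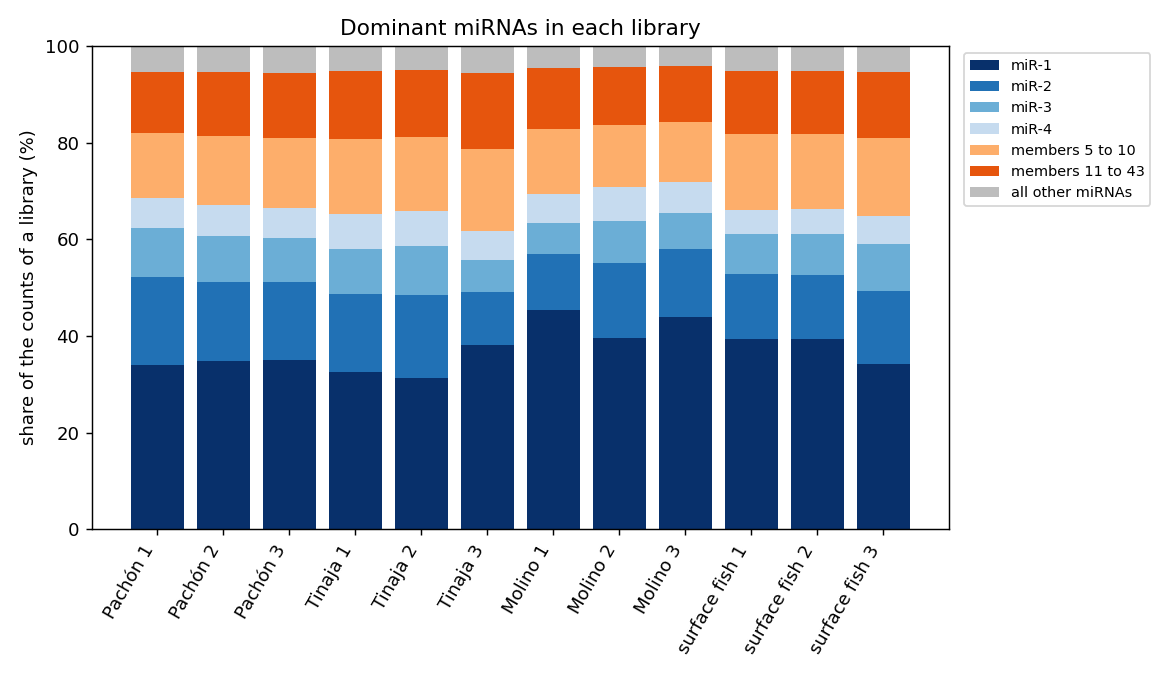
Share of the catalogued miRNA counts of each library (%, vertical axis) held by the 43 dominant miRNAs, stacked by abundance, in the 12 libraries (horizontal axis, with the prefix astmex- left off the names). The grey top of each bar, all other miRNAs, takes 4.17% to 5.68%, and the dark base, astmex-miR-1, takes 31.3% to 45.4%.

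The most abundant miRNA of every library was astmex-miR-1. It held 34.0%, 34.8%, and 35.1% of the counts in the Pachón libraries 1 to 3, 32.6%, 31.3%, and 38.2% in Tinaja, and 45.4%, 39.7%, and 43.9% in Molino, against 39.4%, 39.3%, and 34.1% in surface fish. The Molino libraries were the highest, although the lowest of them, at 39.65%, was close to the highest of surface fish, at 39.42%, whereas the ranges of Tinaja and surface fish overlapped and the Pachón libraries lay within the Tinaja range. After TMM scaling, the log2 difference of Molino from surface fish was 0.24 ± 0.07 (± SE here and for all log2 differences below), that from Pachón 0.34 ± 0.07, and that from Tinaja 0.40 ± 0.07.

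The order of the first 4 miRNAs was the same in all 12 libraries: astmex-miR-1, astmex-miR-2, astmex-miR-3, and astmex-miR-4. Together they held 67.4% ± 1.07 of the counts in Pachón, 64.3% ± 2.26 in Tinaja, 70.7% ± 1.26 in Molino, and 65.7% ± 0.824 in surface fish. The first 10 held 81.5% in Pachón, 80.3% in Tinaja, 83.6% in Molino, and 81.5% in surface fish. Counted over the whole catalogue, 21 to 22 miRNAs made up 90% of a library in Pachón, 21 to 24 in Tinaja, 19 to 21 in Molino, and 22 to 23 in surface fish, so the cave morphs met or overlapped and Molino and surface fish did not.

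Among these, astmex-miR-2 took 18.1%, 16.4%, and 16.0% of the Pachón libraries, 16.0%, 17.3%, and 10.9% of the Tinaja libraries, and 11.6%, 15.5%, and 14.1% of the Molino libraries, against 13.5%, 13.4%, and 15.1% of those of surface fish. Tinaja replicate 3 and Molino replicate 1 were the lowest, and the ranges of all morphs but Pachón overlapped with that of surface fish. For astmex-miR-3 the means were 9.61% ± 0.557 in Pachón, 8.63% ± 1.80 in Tinaja, 7.50% ± 1.14 in Molino, and 8.78% ± 0.848 in surface fish. For astmex-miR-4 the means were 6.33% ± 0.149 in Pachón, 6.88% ± 0.773 in Tinaja, 6.47% ± 0.506 in Molino, and 5.31% ± 0.381 in surface fish. All cave morph libraries were above the surface fish libraries for astmex-miR-4 in share (5.99% to 7.35% against 5.06% to 5.75%), but after TMM scaling the Tinaja libraries overlapped with those of surface fish.

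The places 5 to 7 changed hands between morphs. In Pachón, astmex-miR-6 was the fifth and astmex-miR-5 the sixth, in Tinaja and Molino astmex-miR-5 was the fifth, and in surface fish astmex-miR-7 was the sixth and astmex-miR-6 the seventh. The astmex-miR-5 shares were 2.57%, 2.59%, and 2.88% in Pachón, 3.60%, 3.79%, and 4.59% in Tinaja, and 3.28%, 2.99%, and 2.68% in Molino, against 4.22%, 4.42%, and 4.04% in surface fish. It was low in Pachón and Molino, and in surface fish it overlapped with Tinaja. The log2 difference from surface fish was -0.64 ± 0.07 for Pachón, -0.09 ± 0.07 for Tinaja, and -0.45 ± 0.07 for Molino. The astmex-miR-7 shares were 2.23% to 2.29% for Pachón, 2.75% to 2.85% for Tinaja, and 2.57% to 2.72% for Molino, against 3.42% to 3.54% in surface fish, so all cave morphs were below surface fish without overlap. Its log2 difference from surface fish was -0.60 ± 0.06 for Pachón, -0.31 ± 0.06 for Tinaja, and -0.34 ± 0.06 for Molino. The astmex-miR-6 means were 3.53% ± 0.207 in Pachón, 3.29% ± 0.125 in Tinaja, 2.69% ± 0.101 in Molino, and 2.68% ± 0.141 in surface fish. As a ratio within a library, astmex-miR-5 over astmex-miR-6 was 0.760 in Pachón, 1.21 in Tinaja, 1.11 in Molino, and 1.58 in surface fish. The 3 next in order, astmex-miR-8, astmex-miR-10, and astmex-miR-9, held between 1.09% and 2.27% of each library.

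Below them the levels fell steadily. Of the 43 miRNAs, 12 had a mean share of at least 1%, and the other 31 lay between 0.1% and 1%. The least abundant was astmex-miR-39, with 0.112% ± 0.00484 in Pachón, 0.146% ± 0.0235 in Tinaja, 0.0765% ± 0.00579 in Molino, and 0.113% ± 0.00588 in surface fish.

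**Figure D2:**
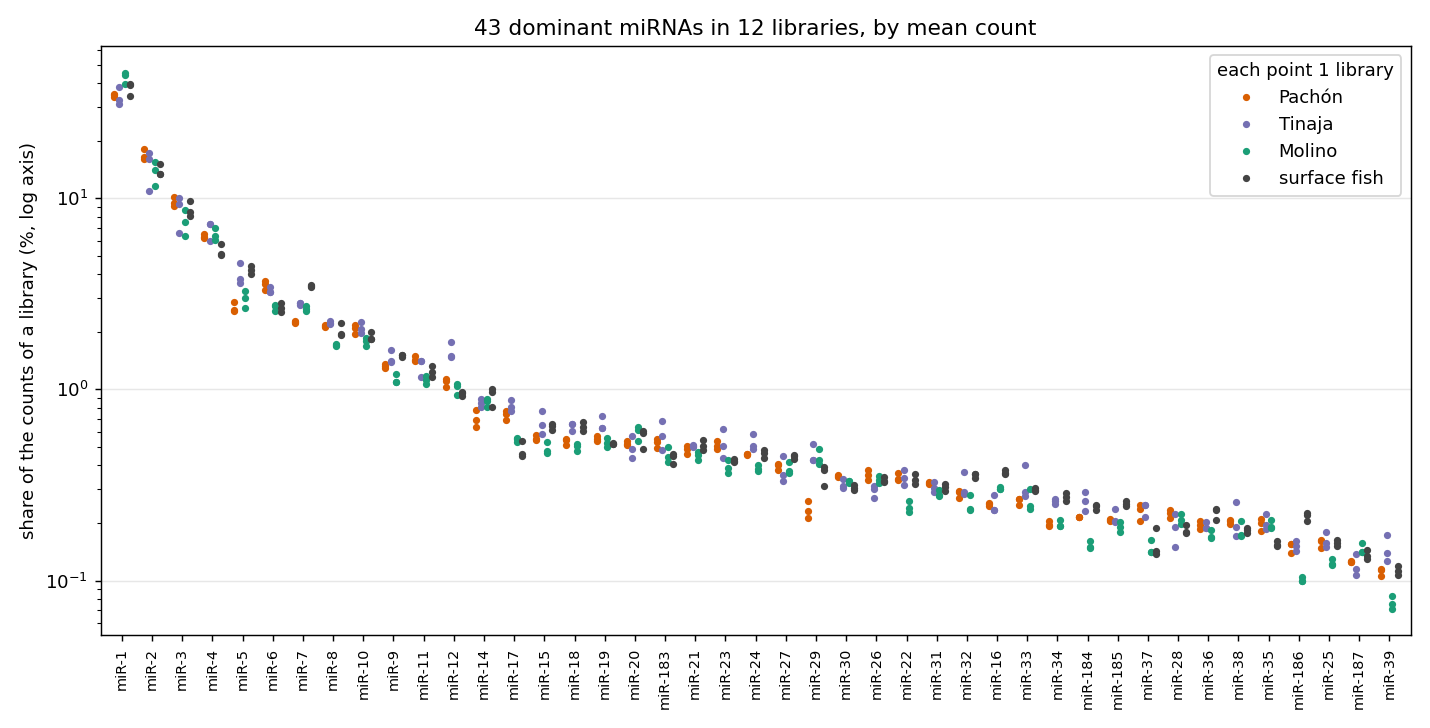
Share of the catalogued miRNA counts of a library (%, log axis) of each of the 43 dominant miRNAs (horizontal axis, by mean count, prefix astmex- left off), with each point 1 library and the 4 morphs side by side. Most miRNAs keep the points of all morphs close together, and astmex-miR-29, astmex-miR-186, and astmex-miR-39 spread the most among those of low abundance.

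At the limits of the rule, the miRNAs just inside the count limit were astmex-miR-39 and astmex-miR-187, with mean counts of 11010 and 12520. Those just outside were astmex-miR-40 and astmex-miR-44, with 9886 and 9054. Among miRNAs above the count limit, astmex-miR-29 and astmex-miR-186 had the largest gaps that were still allowed (0.62 and 0.57), and only astmex-miR-13 lay beyond it, with a gap of 0.94. The excluded astmex-miR-13 held 1.68% ± 0.133 of the counts in Pachón, 1.27% ± 0.176 in Tinaja, 0.658% ± 0.0679 in Molino, and 1.35% ± 0.0535 in surface fish.

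Over the 4 morphs, the range of the log2 level lay between 0.17 and 1.11, with a median of 0.39, which corresponds to a fold of 1.13 to 2.15 with a median of 1.31. It was under 0.5 for 31 miRNAs, from 0.5 to under 1 for 11, and above 1 for astmex-miR-186 alone. The standard deviation (SD) between libraries of the same morph, pooled over morphs on the log2 scale, lay between 0.028 and 0.29 with a median of 0.078. For the other 640 miRNAs its median was 0.27. All of those but astmex-miR-13 were under the count limit, where counting error is larger, so this contrast is not independent of the choice. Among the 43, the range over morphs was between 1.002 and 17.2 times the SD between libraries, with a median of 5.10. In this ratio the range is that of CPM and the SD that of TMM-scaled CPM.

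The smallest ranges belonged to astmex-miR-38, astmex-miR-21, and astmex-miR-31, with 0.17, 0.18, and 0.19. The shares of astmex-miR-21 were 0.458%, 0.491%, and 0.504% in Pachón, 0.507%, 0.509%, and 0.502% in Tinaja, and 0.472%, 0.457%, and 0.428% in Molino, against 0.482%, 0.507%, and 0.544% in surface fish. No morph stood apart for astmex-miR-21 in share.

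The largest range was that of astmex-miR-186. Its share was 0.140%, 0.156%, and 0.155% in Pachón, 0.151%, 0.143%, and 0.161% in Tinaja, and 0.104%, 0.0990%, and 0.0995% in Molino, against 0.204%, 0.220%, and 0.227% in surface fish. The levels formed 3 tiers without overlap, with surface fish at the top, Pachón and Tinaja together in the middle, and Molino at the bottom. Its log2 difference from surface fish was -0.51 ± 0.06 for Pachón, -0.52 ± 0.06 for Tinaja, and -1.05 ± 0.06 for Molino.

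For astmex-miR-29, Pachón was the lowest morph, and Tinaja and Molino were above surface fish. Its share was 0.213%, 0.231%, and 0.262% in Pachón, 0.427%, 0.429%, and 0.519% in Tinaja, and 0.489%, 0.428%, and 0.408% in Molino, against 0.313%, 0.395%, and 0.380% in surface fish. The Pachón libraries were below all others, and Tinaja and Molino overlapped with each other but not with surface fish. The log2 difference from surface fish was -0.60 ± 0.08 for Pachón, 0.33 ± 0.08 for Tinaja, and 0.33 ± 0.08 for Molino, and Molino minus Pachón was 0.94 ± 0.08. Among the 43 miRNAs, it held places 30 to 33 in Pachón, 22 to 23 in Tinaja, 20 to 21 in Molino, and 24 to 29 in surface fish.

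A pair of the miRNAs with large ranges was high in Tinaja. The share of astmex-miR-12 was 1.03%, 1.14%, and 1.11% in Pachón, 1.49%, 1.48%, and 1.77% in Tinaja, and 1.07%, 1.05%, and 0.930% in Molino, against 0.954%, 0.926%, and 0.969% in surface fish. Tinaja was above every other library, and its log2 difference from surface fish was 0.72 ± 0.06. For astmex-miR-17, the share was 0.688%, 0.741%, and 0.768% in Pachón, 0.771%, 0.804%, and 0.880% in Tinaja, and 0.548%, 0.559%, and 0.530% in Molino, against 0.457%, 0.447%, and 0.535% in surface fish. Pachón and Tinaja were well above the other morphs, and the log2 difference from surface fish was 0.64 ± 0.07 for Pachón, 0.77 ± 0.07 for Tinaja, and 0.24 ± 0.07 for Molino.

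Low levels in Molino marked astmex-miR-39 and astmex-miR-184. The share of astmex-miR-39 was 0.0828%, 0.0755%, and 0.0713% in the Molino libraries, and 0.107% to 0.119% in those of surface fish. Its log2 difference in Molino was -0.51 ± 0.06 from surface fish and -0.87 ± 0.06 from Tinaja. Its highest morph was Tinaja, at 0.146% ± 0.0235, while Pachón was at 0.112% ± 0.00484. The share of astmex-miR-184 was 0.161%, 0.151%, and 0.149% in Molino, against 0.234% to 0.247% in surface fish, with a log2 difference of -0.61 ± 0.06. Its share in the other cave morphs was 0.214% to 0.216% in Pachón and 0.231% to 0.289% in Tinaja, so Molino was below all of them.

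On the other hand, astmex-miR-37 separated the morphs by pairs. Its share was 0.205%, 0.236%, and 0.249% in Pachón, 0.248%, 0.247%, and 0.216% in Tinaja, and 0.142%, 0.162%, and 0.141% in Molino, against 0.138%, 0.142%, and 0.189% in surface fish. All Pachón and Tinaja libraries were above all Molino and surface fish libraries. The log2 difference from surface fish was 0.58 ± 0.12 for Pachón, 0.61 ± 0.12 for Tinaja, and -0.02 ± 0.12 for Molino. In contrast, astmex-miR-26 was low only in Tinaja, at 0.300%, 0.270%, and 0.311%, where the 3 surface fish libraries were at 0.332%, 0.327%, and 0.350%. Pachón (0.335% to 0.379%) and Molino (0.326% to 0.351%) overlapped with surface fish in share.

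In the 6 comparisons the 43 miRNAs shifted by small amounts around 0. The median log2 difference of the 43 from surface fish was 0.01 for Pachón, 0.03 for Tinaja, and -0.09 for Molino, where the medians over all 683 miRNAs were 0.03, 0.00, and 0.18. Their median size was 0.22 for Pachón, 0.18 for Tinaja, and 0.20 for Molino, while over all miRNAs it was 0.65, 0.63, and 0.77. Between the cave morphs, the median of the 43 was -0.13 for Molino minus Pachón, -0.20 for Molino minus Tinaja, and -0.02 for Pachón minus Tinaja. With library sizes computed without astmex-miR-1 and without TMM factors, these medians were 0.05, -0.03, and -0.03, so that of Molino minus Pachón changed sign. Those from surface fish were then -0.08 for Pachón, -0.04 for Tinaja, and -0.02 for Molino. With only the TMM factors left out, the medians between cave morphs were -0.15, -0.25, and -0.04 in the same order. Those from surface fish were -0.01 for Pachón, 0.04 for Tinaja, and -0.15 for Molino. Of the 44 miRNAs above the count limit, the gap limit left out only astmex-miR-13. All other miRNAs outside the set were under the count limit, where counting error is larger. The smaller sizes are therefore not independent of the choice by abundance, and the part of abundance in them was not tested.

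**Figure D3:**
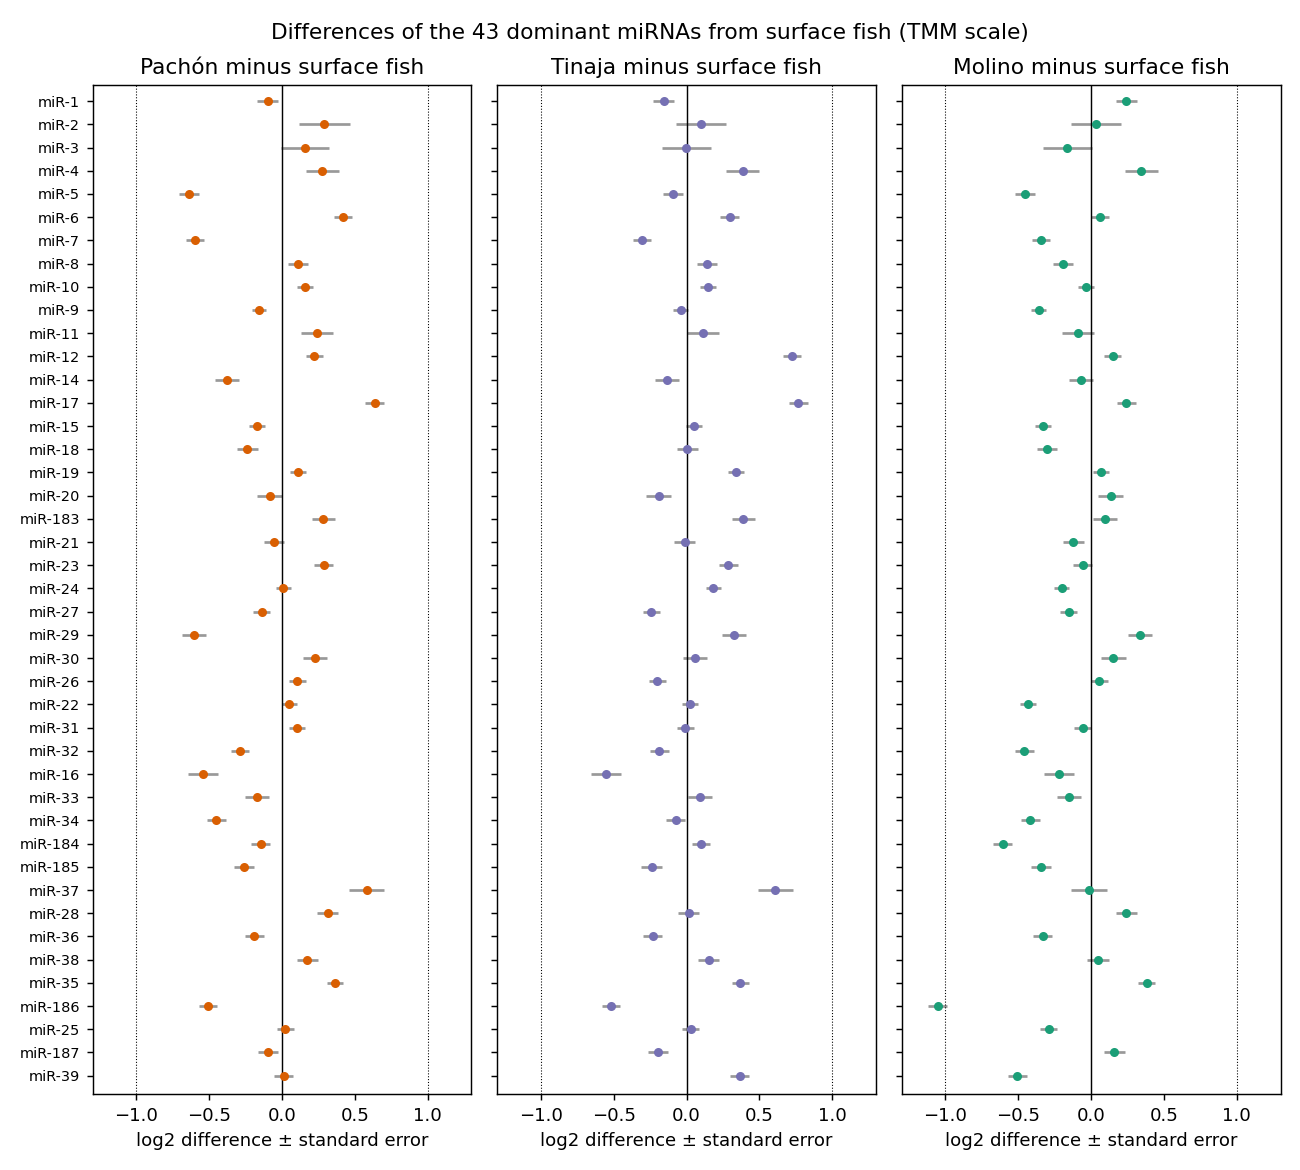
Log2 differences (edgeR, TMM scale) of the 43 dominant miRNAs from surface fish, with bars for the standard error, in Pachón, Tinaja, and Molino (left to right, prefix astmex- left off, dotted lines at a 2-fold difference). Only astmex-miR-186 in Molino, at -1.05, lies beyond a dotted line.

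The largest differences from surface fish were the following. In Pachón, they were those of astmex-miR-17 (0.64 ± 0.07) and astmex-miR-5 (-0.64 ± 0.07). In Tinaja, they were those of astmex-miR-17 (0.77 ± 0.07) and astmex-miR-16 (-0.55 ± 0.10). The astmex-miR-16 share was 0.235%, 0.281%, and 0.233% in Tinaja, against 0.378%, 0.364%, and 0.362% in surface fish. In Molino, they were those of astmex-miR-35 (0.38 ± 0.06) and astmex-miR-186. The difference of astmex-miR-35 was of like size in the other cave morphs, with 0.36 ± 0.06 in Pachón and 0.37 ± 0.06 in Tinaja, and its share was 0.182% to 0.209% for Pachón, 0.186% to 0.224% for Tinaja, and 0.188% to 0.207% for Molino, against 0.152% to 0.161% in surface fish. These 3 comparisons share the surface fish libraries. Between the cave morphs, the extremes were astmex-miR-29 and astmex-miR-37 (0.94 ± 0.08 and -0.60 ± 0.12) for Molino minus Pachón, astmex-miR-1 and astmex-miR-39 (0.40 ± 0.07 and -0.87 ± 0.06) for Molino minus Tinaja, and astmex-miR-26 and astmex-miR-29 (0.31 ± 0.06 and -0.93 ± 0.08) for Pachón minus Tinaja.

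By edgeR at an adjusted p under 0.05, 10 of the 43 were higher and 13 lower in Pachón than in surface fish, where 26.4% of all miRNAs were higher and 23.4% lower (49.8% in all). In Tinaja, 13 were higher and 9 lower than in surface fish, beside 24.9% and 23.6% of all miRNAs (48.5% together). In Molino, 7 were higher and 17 lower than in surface fish, beside 32.9% and 22.4% of all miRNAs (55.3% together). Molino had 8 higher and 17 lower than Pachón (32.5% and 25.3% of all, 57.8% together), and 6 higher and 22 lower than Tinaja (35.1% and 28.4% of all, 63.5% together). Pachón had 2 higher and 13 lower than Tinaja (25.2% and 20.6% of all, 45.8% together). With a 2-fold minimum added, only astmex-miR-186 in Molino against surface fish was left. Of all miRNAs, 29.7% passed for Pachón, 28.7% for Tinaja, and 34.8% for Molino, each minus surface fish, and 39.5% passed for Molino minus Pachón, 42.8% for Molino minus Tinaja, and 24.9% for Pachón minus Tinaja. In the other 5 comparisons the count of 0 also held for an unadjusted edgeR p under 0.05 and for DESeq2 with the same minimum. These counts are a description, since the rule used the same contrasts.

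The split into higher and lower depended on the scaling of the libraries, of which astmex-miR-1 alone took up 31.3% to 45.4%. An alternative computed library sizes without astmex-miR-1 and used no TMM factors. Its counts were 3 higher and 11 lower for Pachón minus surface fish. They were 9 and 5 for Molino minus Pachón, and 7 and 7 for Molino minus Tinaja. With only the TMM factors left out, the counts in this order were 10 and 11, 5 and 17, and 5 and 23. With the size factors of DESeq2 (RLE) they were 4 and 19 for Molino minus surface fish and 5 and 20 for Molino minus Pachón, and without TMM factors they were 4 and 17 for Molino minus surface fish. The shares of all miRNAs given above are those of the main fit and cannot be set beside these counts. Leaving out only the TMM factors moved the median of all miRNAs by -0.03 in Molino minus Pachón and -0.04 in Molino minus Tinaja. The scaling without both astmex-miR-1 and the TMM factors moved it by 0.17 in each of these comparisons. Under it, astmex-miR-15, astmex-miR-31, and astmex-miR-32, which were lower in Molino than in Pachón (-0.16, -0.16, and -0.17), had differences of 0.01. The first and the last of these were chosen after their values were seen.

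For some of the 43, the 3 libraries of a morph lay above or below all 9 others in TMM-scaled CPM. The share of all miRNAs that did so is in parentheses. Molino had the most, with 11 below all others (13.2% of all miRNAs were so) and 1, astmex-miR-1, above (20.1%). Tinaja had 5 above (9.37%), among them astmex-miR-12, astmex-miR-17, astmex-miR-24, and astmex-miR-39, and 2 below (9.22%), astmex-miR-26 and astmex-miR-187. Surface fish had 7 above (7.61%), among them astmex-miR-7, astmex-miR-16, and astmex-miR-186, and 4 below (9.66%), among them astmex-miR-12, astmex-miR-17, and astmex-miR-35. Pachón had 4 below (5.71%), among them astmex-miR-5, astmex-miR-7, and astmex-miR-29, and 0 above (9.52%). With library sizes computed without astmex-miR-1, an alternative chosen after seeing the data, the Molino counts were 4 below and 3 above. Those of Tinaja were 1 above and 1 below, of surface fish 4 above and 4 below, and of Pachón 1 above and 5 below. In CPM without TMM scaling, Molino had 10 below and 1 above, and Tinaja 5 above and 1 below. Surface fish then had 5 above and 2 below, and Pachón 1 above and 3 below. The shares in parentheses hold for TMM scaling only and cannot be set beside these counts.

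The rank order within a library needs no scaling. The 4 first miRNAs kept their places in all libraries, 13 moved by 1 to 3 places, 23 by 4 to 9 places, and 3 by 10 or more. These last were astmex-miR-29, astmex-miR-16 (places 24 to 35), and astmex-miR-37 (places 31 to 41). Between morphs, astmex-miR-17 was at places 13 to 14 in Pachón, 14 in Tinaja, 14 to 16 in Molino, and at 17 to 20 in surface fish. In Molino, astmex-miR-20 was at places 14 to 15, whereas the Pachón libraries had it at 17 to 19, the Tinaja libraries at 21 to 22, and the surface fish libraries at 16 to 19. For astmex-miR-186, the place was 41 for Pachón, 41 to 42 for Tinaja, and 42 for Molino, and 36 in all 3 surface fish libraries.

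**Figure D4:**
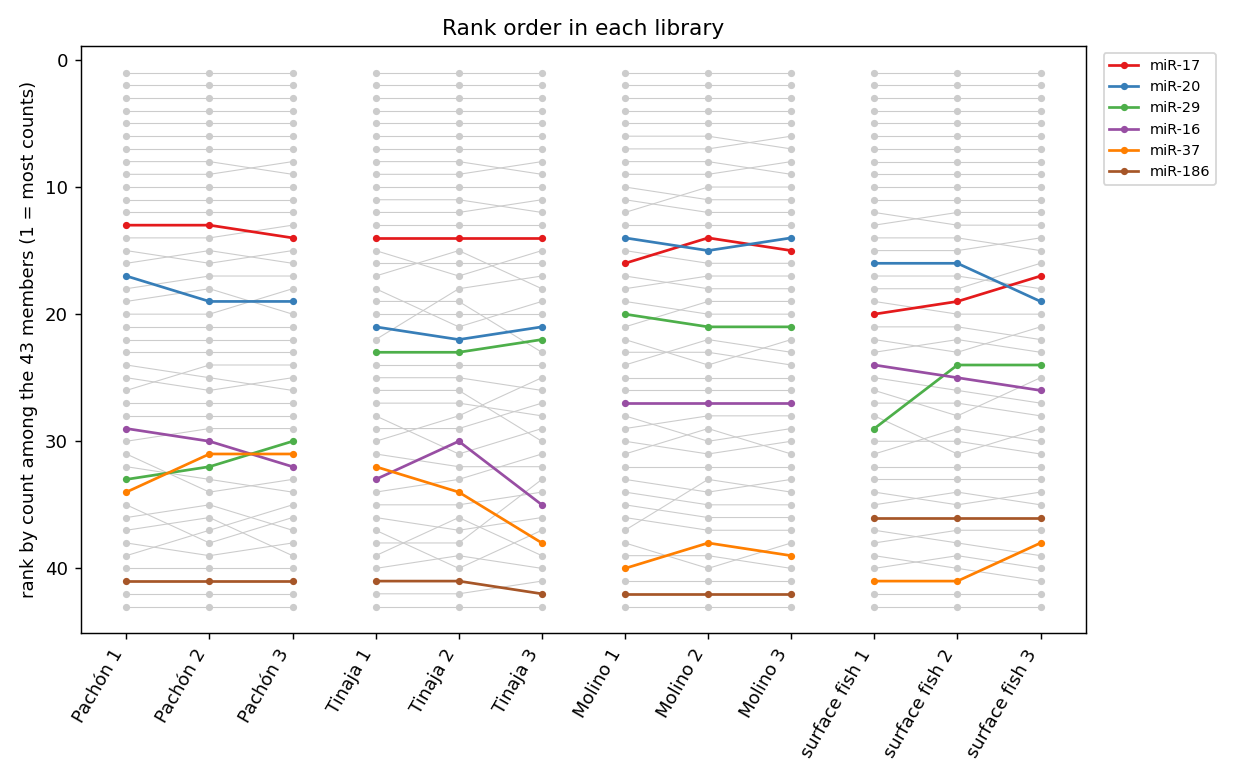
Place of each of the 43 dominant miRNAs by count (vertical axis, 1 for the most counts) in each of the 12 libraries, with 6 miRNAs in color (prefix astmex- left off) and the others in grey. The lines of places 1 to 4 are flat, astmex-miR-29 is lowest in Pachón, at places 30 to 33, and astmex-miR-186 is at 36 in surface fish and at 41 or 42 elsewhere.

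Of the 903 pairs among the 43 miRNAs, 786 had the same order in all 12 libraries. In 70 pairs the order was the same in the 3 libraries of a morph and the opposite in the 3 libraries of another. Such turns were most frequent between Pachón and surface fish (36 pairs) and between Molino and surface fish (35 pairs), and least frequent between Pachón and Tinaja (18 pairs). The other combinations had 30 pairs (Pachón and Molino), 28 (Tinaja and Molino), and 24 (Tinaja and surface fish). Of the 42 pairs that neighbour each other in mean count, 7 kept their order in all libraries and 27 turned between morphs.

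Ratios within a library varied little for some pairs and widely for others. The least variable of the 903 pairs was astmex-miR-1 over astmex-miR-20. The ratio was 65.3, 67.9, and 65.3 in Pachón, 67.1, 71.4, and 67.3 in Tinaja, and 71.0, 73.6, and 71.5 in Molino, against 66.6, 65.1, and 69.7 in surface fish. All 12 values lay between 65.1 and 73.6, and the SD of the log2 ratio over the libraries was 0.060, although the share of astmex-miR-1 itself ranged from 31.3% to 45.4%. At the other end, astmex-miR-29 over astmex-miR-186 had an SD of 0.65 on the log2 scale, with mean ratios of 1.56 in Pachón, 3.01 in Tinaja, 4.37 in Molino, and 1.67 in surface fish.

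The astmex-miR-29 over astmex-miR-30 ratio was 0.595, 0.664, and 0.742 in Pachón, 1.26, 1.37, and 1.71 in Tinaja, and 1.48, 1.32, and 1.23 in Molino, against 1.05, 1.25, and 1.25 in surface fish. It was under 1 in all Pachón libraries and above 1 in all 9 others. The astmex-miR-186 over astmex-miR-35 ratio was 0.762 in Pachón, 0.754 in Tinaja, 0.517 in Molino, and 1.40 in surface fish. In contrast, astmex-miR-9 over astmex-miR-15 was close in all morphs, with means of 2.37 in Pachón, 2.21 in Tinaja, 2.31 in Molino, and 2.35 in surface fish. Of these, astmex-miR-30 and astmex-miR-15 were chosen after their values were seen.

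**Figure D5:**
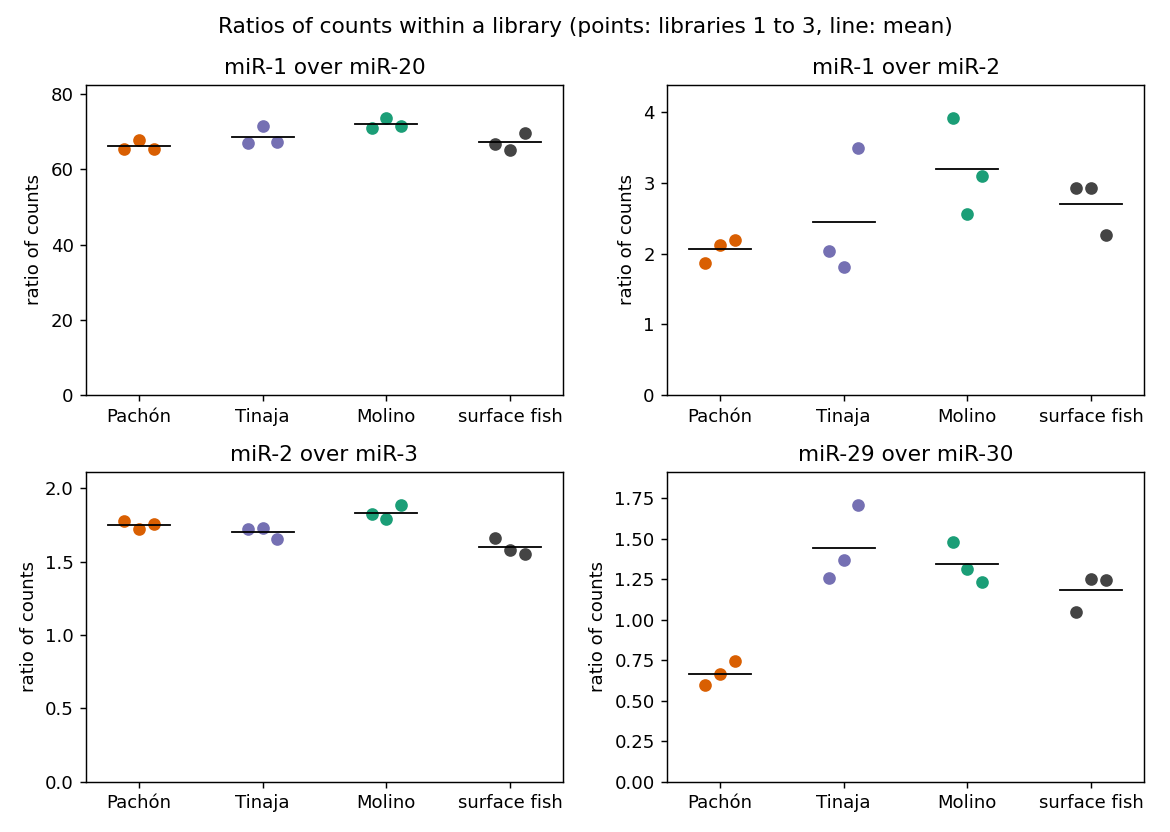
Ratios of the counts of 4 pairs of miRNAs within a library (vertical axes, from 0; prefix astmex- left off) in the 4 morphs, with points for the 3 libraries and a line at their mean. The astmex-miR-1 over astmex-miR-20 ratio stays between 65.1 and 73.6, the astmex-miR-1 over astmex-miR-2 ratio spreads from 1.81 to 3.92 with wide differences inside Tinaja and Molino, and the astmex-miR-29 over astmex-miR-30 ratio is under 1 only in Pachón.

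The same pair stood out in the levels. Over the 12 libraries, astmex-miR-20 was the miRNA of the 43 most like astmex-miR-1 in log2 TMM-scaled CPM, with Pearson's r of 0.94, Spearman's rho of 0.965, and r of 0.90 without the 2 libraries farthest from the median of astmex-miR-1. Within morphs, after each morph mean was taken off, r was 0.96. The values share the scaling factor of each library, and no p is given, since the pair was picked for its likeness. The next were astmex-miR-187 (r of 0.71) and astmex-miR-16 (r of 0.50), but within morphs astmex-miR-187 had an r of -0.31 and astmex-miR-16 of 0.23.

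The largest spread between libraries of the same morph was that of the second and the third most abundant miRNAs. The pooled SD on the log2 scale was 0.29 for astmex-miR-2, 0.28 for astmex-miR-3, and 0.19 for astmex-miR-37, whereas it was 0.028 for astmex-miR-24, 0.031 for astmex-miR-9, and 0.037 for astmex-miR-22. The SD of astmex-miR-2 was of the size of its range over morphs, which was 0.29, and the SE of each of its differences between morphs was 0.17.

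This spread was shared by a group of miRNAs. Within morphs, the r with astmex-miR-2 over the 12 libraries was 0.99 for astmex-miR-3, 0.99 for astmex-miR-11, and 0.97 for astmex-miR-4, and it was -0.15 for astmex-miR-1 and -0.28 for astmex-miR-20. Other miRNAs moved against astmex-miR-2. Of the 42 others, 15 had an r over 0.5 and 8 an r under -0.5, the lowest being -0.91 for astmex-miR-38, -0.83 for astmex-miR-33, and -0.81 for astmex-miR-27, or -0.71, -0.64, and -0.48 without Tinaja replicate 3. Both counts include that library and depended on it. The values also share the scaling factor of each library, which was 1.14 for Tinaja replicate 3. In share, astmex-miR-6 and astmex-miR-34, both with an r over 0.5, were higher there than in the other Tinaja libraries. Without Tinaja replicate 3, r fell from 0.86 to 0.45 for astmex-miR-7 and from 0.76 to 0.21 for astmex-miR-21. For astmex-miR-187 it rose from 0.26 to 0.87. Tinaja replicate 3 and Molino replicate 1 were the lowest of their morphs for astmex-miR-2, astmex-miR-3, astmex-miR-4, and astmex-miR-11, in share as in TMM-scaled CPM. Some others of the 43 were lowest in both of these libraries only in TMM-scaled CPM. Among them were astmex-miR-17 and astmex-miR-186, whose highest Tinaja share was in replicate 3. In Tinaja replicate 3 the log2 deviation from the morph mean was -0.57 for astmex-miR-2, -0.53 for astmex-miR-3, -0.36 for astmex-miR-4, and -0.34 for astmex-miR-11. In Molino replicate 1 it was -0.32 for astmex-miR-2, -0.31 for astmex-miR-3, -0.18 for astmex-miR-4, and -0.15 for astmex-miR-11. Without Tinaja replicate 3, the r with astmex-miR-2 was 0.98 for astmex-miR-3, 0.96 for astmex-miR-11, and 0.88 for astmex-miR-4, and the SD was 0.17 for astmex-miR-2, 0.18 for astmex-miR-3, 0.10 for astmex-miR-4, and 0.088 for astmex-miR-11. The group was put together after its values were seen. The choice of astmex-miR-11, astmex-miR-33, astmex-miR-27, and astmex-miR-34 was also made after their values were seen. The astmex-miR-2 over astmex-miR-3 ratio was steady within morphs, with 1.75 ± 0.0265 in Pachón, 1.70 ± 0.0417 in Tinaja, 1.83 ± 0.0497 in Molino, and 1.60 ± 0.0547 in surface fish.

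The size of the differences of these miRNAs that involve Tinaja or Molino depended on those libraries. The log2 difference of astmex-miR-2 between Tinaja and surface fish was 0.10 with all libraries and 0.33 without Tinaja replicate 3, and that of astmex-miR-3 was -0.00 and 0.22. For astmex-miR-2, Pachón minus Tinaja was 0.19 with all libraries and -0.04 without that library, and Molino minus Tinaja was -0.06 and -0.30. Between Molino and surface fish, the difference of astmex-miR-2 was 0.03 with all libraries and 0.17 without Molino replicate 1. The differences of astmex-miR-4 from surface fish were larger without these libraries. For Tinaja, that difference was 0.38 with all libraries and 0.54 without Tinaja replicate 3. For Molino, it was 0.34 with all libraries and 0.43 without Molino replicate 1. Over the 43 miRNAs, the median size of the deviation from the morph mean was 0.086 in Tinaja replicate 3 and 0.072 in Tinaja replicate 2, and 0.028 to 0.045 in the other 10 libraries. The TMM factors of the same Tinaja libraries were the extremes of the series, and the part of this in the deviations was not tested.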

How the data were processed

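Small RNA was sequenced from embryos of 4 morphs, 3 libraries each. The authors demultiplexed with bcl2fastq 2.20, trimmed with cutadapt 2.5, discarded reads under 18 bases, took out reads of tRNAs, rRNAs, and small nuclear, nucleolar, and Cajal body RNAs, predicted miRNAs from the joined reads with miRDeep2, collapsed identical ones, and counted reads of each library on the precursors. They deposited raw counts of 683 miRNAs, without normalization or pooling. How reads that fit several similar miRNAs were counted is not given in the sources used here.

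Morph and replicate came from the labels, and 0 columns were left unused. Counts were fitted in R 4.3.3 with edgeR 4.0.16 (TMM, quasi-likelihood, no low-count filter) in one fit of 12 libraries, with Benjamini-Hochberg adjustment over 683 miRNAs. A standard error is the log2 difference divided by the square root of F. DESeq2 1.42.0 was an alternative, and the code was tested on simulated data. Spreads, likeness, and deviations used log2 of TMM-scaled CPM plus 0.5. Named miRNAs were the 10 with the highest share, the 6 largest and 3 smallest ranges, the 3 largest and 3 smallest spreads, those nearest the limits, the extremes of each comparison, and the 3 most like the leading one. The 43 miRNAs and these lists were chosen with earlier results of these data known.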

Additional observations from a re-analysis of the deposited data

How the results depend on the processing

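Other limits gave 34 to 61 miRNAs in place of 43. The share was 92.73% in Pachón, 92.12% in Tinaja, 93.88% in Molino, and 92.91% in surface fish with gaps under 0.5, 92.95%, 93.08%, 94.30%, and 93.18% (in the same order) with mean counts of at least 20000, and 91.65%, 91.91%, 92.37%, and 91.52% without astmex-miR-1. With astmex-miR-13 included, chosen after seeing the data, it was 96.22%, 95.95%, 96.32%, and 96.06%. With library sizes without astmex-miR-1 and no TMM factors, fewer of the 43 were called by edgeR: 14 (Pachón minus surface fish), 12 (Tinaja minus surface fish), 14 (Molino minus Pachón), 14 (Molino minus Tinaja), and 8 (Pachón minus Tinaja), against 23, 22, 25, 28, and 15, and 16 against 24 for Molino minus surface fish. With only the TMM factors left out, the calls in this order were 21, 16, 22, 28, and 14, and 21 for Molino minus surface fish. For these and the other alternative fits below, the share of all miRNAs called is not given. The counts therefore only describe how the calls among the 43 moved. With a 2-fold change as the null hypothesis (glmTreat), 0 were called in each of the 6 comparisons, also at an unadjusted p under 0.05. DESeq2 with a 2-fold minimum called 1, astmex-miR-186 in Molino against surface fish. The gap limit on the same morph means favors such low counts, so they are a description only. Leaving out each library in turn gave 43 to 44 members, 20 to 29, 17 to 26, 21 to 27, 20 to 30, 27 to 33, and 13 to 17 calls in the 6 comparisons (Pachón, Tinaja, and Molino against surface fish, then Molino minus Pachón, Molino minus Tinaja, and Pachón minus Tinaja), and shares of 94.46% to 94.62%, 94.52% to 94.87%, 95.57% to 95.75%, and 94.65% to 94.81%. Without Pachón replicate 3 or surface fish replicate 1, astmex-miR-29 left the set and astmex-miR-40 entered it. Without Pachón replicate 1, surface fish replicate 2 or 3, or any single Molino library, astmex-miR-40 also entered the set. With medians in place of means in the level, astmex-miR-29 and astmex-miR-37 left it. No pairing by replicate number was seen over 503 miRNAs with a mean count of at least 10. Deviations of 18 same-numbered pairs correlated between -0.164 and 0.12, and those of 36 different-numbered pairs between -0.168 and 0.255. Of 12 libraries, 3 were closest to their own number. Such correlations cannot exclude a pairing. With the replicate block, the calls were 24, 22, 23, 24, 28, and 15. With all libraries thinned to the depth of the shallowest, the calls were 24, 21, 24, 26, 28, and 15 in the same order. For Pachón minus surface fish, 14 of the 43 were then higher and 10 lower, against 10 and 13. The median log2 difference in that comparison was 0.05, against 0.01. A share is relative, and a difference in astmex-miR-1 moves the shares of all others.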

Other observations

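The numbers of the 43 miRNAs in the catalogue form 2 runs. Of them, 38 are numbered 1 to 39, with only astmex-miR-13 missing, and 5 are numbered 183 to 187. Number 182 had a mean count of 4.17, and number 188 of 7291. Mean counts fell along the numbers within each run, with a Spearman's rho of -0.962 over the numbers 1 to 182 (n = 182) and of -0.978 from 183 on (n = 501), as a description across miRNAs. The reason for this order is not given in the sources used here. The 5 miRNAs astmex-miR-183 to astmex-miR-187 together held 1.22% ± 0.0411 of the counts in Pachón, 1.33% ± 0.171 in Tinaja, 1.04% ± 0.0441 in Molino, and 1.29% ± 0.0485 in surface fish (SD, n = 3 each). Among them, astmex-miR-183 and astmex-miR-185 were chosen after its values were seen.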
